A study of Mus musculus with 8 samples.

Results

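The macrophages and microglia of the mouse median eminence (ME) were taken from a single-cell library as the cells in which the UMIs (unique molecular identifiers, 1 per captured transcript) of C1qa, C1qb, C1qc and Ctss together made up at least 0.3% of all UMIs of the cell. The rule found 80 of 990 cells, or 8.08% of the library (exact Clopper-Pearson 95% interval 6.46 to 9.96). The ME of 10 wild-type (WT) female C57BL/6 mice, 2 months old, was pooled, digested with papain and sequenced as a single 10x Genomics library, so there was no replicate and no test was run across cells. In bulk RNAseq, undissociated ME from 3 control (WT) and 4 Rax::BrafV600E mutant mice was profiled with a Smart-seq2 protocol, and all these mice were also labelled C57BL/6 and 2 months old. The labels name the strain C57BL/6, and the methods name the substrain C57BL/6N. The mutants carry Rax-CreERT2 and an inducible BrafV600E allele, and the tissue was taken 2 months after tamoxifen. The methods give tamoxifen to adult mice, so this timing and the labelled age do not match. The age of the bulk mice at collection is not settled by the sources used here. The Cre is expressed from the locus of Rax, a gene of tanycytes (ventricular glia of the ME), so the oncogene was not aimed at macrophages. The methods can be read as tamoxifen in both groups but do not say so of the controls, and the sex of the bulk mice is not given in the sources used here.

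Microglia are the resident macrophages of the brain parenchyma, while border-associated macrophages lie along vessels, in the meninges and in the choroid plexus. Both depend on signalling through the receptor Csf1r, both clear debris by phagocytosis, and both make C1q, the recognition subunit of the classical complement pathway. The ME is a circumventricular organ whose fenestrated capillaries lie outside the blood-brain barrier, so parenchymal and border macrophages are found close to each other there.

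The 80 cells held 675775 of the 9846289 UMIs of the library, with a median of 7814.5 UMIs per cell (range 3284 to 22972) and a median of 2444 genes. The other 910 cells had a median of 7852 UMIs. The median share of the 4 rule genes was 3.04% in the selected cells, and the highest was 4.95%. Just above the threshold lay cells at 0.377%, 0.422% and 0.759%, and just below it lay cells at 0.182% and 0.136%. The median of the cells not selected was 0.0148%. The selected cells thus stood apart from the rest on the measure that chose them, which is a description and not a finding. The 2 lowest members also carried many transcripts of vascular and leptomeningeal cells (VLMCs) and are described further on.

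**Figure D1:**
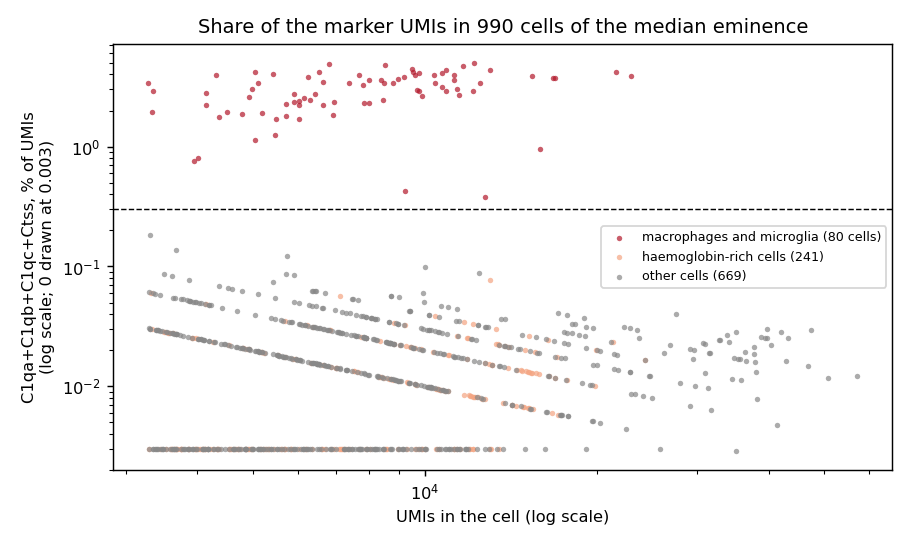
Each point is 1 of the 990 cells, with its UMIs on the x axis (log scale) and the percentage of those UMIs from C1qa, C1qb, C1qc and Ctss on the y axis (log scale, 0 drawn at 0.003). The dashed line is the threshold of 0.3%, and no cell lies between 0.182% and 0.377%.

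C1qa, C1qb and C1qc encode the A, B and C chains of C1q and lie next to each other on chromosome 4 (GRCm38, minus strand, chr4:136895917-136898803, chr4:136880129-136886187 and chr4:136889804-136893065). Ctss, the gene of the lysosomal protease cathepsin S, lies on chromosome 3 (plus strand, chr3:95526786-95556403). All 80 cells had UMIs of all 4 genes. The rule asked only for their sum, which fixed that these genes together were high in the 80 cells. Summed over the 80 cells, Ctss reached 9651 CPM (counts scaled to a total of 1e6), C1qa 8575, C1qb 7445 and C1qc 6001 CPM. In the other 910 cells the same genes lay at 50.5, 45.4, 44.8 and 27.7 CPM. Between 92.4% (C1qb) and 94.1% (C1qc) of the UMIs of each gene in the whole library were in these 80 cells. Free RNA was read from 241 cells in which haemoglobin genes made up at least 10% of UMIs, which are red blood cells by content and have a median depth of 7884 UMIs. These held 18.5 CPM of C1qc and 32.8 CPM of Ctss.

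The chains of C1q kept similar proportions. C1qa, C1qb and C1qc made up 38.9%, 33.8% and 27.2% of C1q UMIs in the 80 cells, and 38.5%, 38.0% and 23.5% in all other cells. Within the 80 cells, the log2 levels of the chains were correlated pairwise with Pearson coefficients of 0.79 to 0.84, over points that share a library and the rule.

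The stretch from 250 bases before to 50 bases after each RefSeq gene start (GRCm38.p6) was searched on both strands for GAGGAA, the core letters bound by PU.1, the macrophage transcription factor encoded by Spi1. The motif was present in 31.3% of all 27025 RefSeq promoters of this length and in 3 of the 3 rule genes with an entry (Ctss, C1qb and C1qc). Among the 20 genes shared by macrophages and microglia it was found in 9 of 14 with an entry, among the parenchymal microglia genes in 6 of 14 and among the border macrophage genes in 7 of 15. Windows of 30 bases around a match are shown on the strand of the gene, with the match in capitals (TTCCTC is GAGGAA on the opposite strand), to place the letters beside the genes that define these cells. The windows lie at chr3:95526610-95526639 for Ctss, chr4:136886213-136886242 for C1qb, chr4:136893090-136893119 for C1qc, chr2:14229367-14229396 for Mrc1 and chr5:90772415-90772444 for Pf4.
Ctss: gacacagggttgGAGGAAaactttgtcctg
C1qb: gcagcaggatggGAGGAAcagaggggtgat
C1qc: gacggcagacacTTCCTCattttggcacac
Mrc1: aaaagggacagcTTCCTCtgtcctcctttt
Pf4: tctgcagagcacTTCCTCatcctgtatcct
The match shown begins 164 bases before the RefSeq start in Ctss, 30 in C1qb, 193 in C1qc, 35 in Mrc1 and 8 in Pf4. A match is a description of these letters and does not show that a factor is bound.

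The label of the cells was checked against markers that the rule did not use. Aif1, which encodes Iba1, was detected in 78 of the 80 cells at 1034 CPM, against 9.92 CPM in the other cells. Csf1r was detected in 77 cells at 1508 CPM, and Cx3cr1, the fractalkine receptor, in 71 cells at 602 CPM. Tyrobp, a signalling adaptor of myeloid receptors, was detected in all 80 cells at 3221 CPM. The transcription factor genes Spi1 and Irf8 were at 369.9 and 431 CPM. Over the whole list of 20 shared macrophage genes, 20 were at least 2-fold higher in the 80 cells than in all other cells, where 10.5% of the 11096 genes with at least 50 UMIs were, and 19 were at least 10-fold higher, where 2.66% were. These genes are not independent of the choice of cells, so the comparison describes the cells and tests nothing.

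Markers of other cell types were mostly at or near 0. Of the 6 neutrophil genes, S100a8, S100a9, Retnlg, Ly6g and Mmp8 had 0 UMIs, and only Csf3r was seen, at 78.4 CPM. The dendritic cell genes Flt3, Xcr1, Clec9a and Cd209a had 0 UMIs, while Batf3 led that list at 28.1 CPM. The 6 monocyte genes summed to 28.1 CPM, the mast cell genes to 2.96 and the NK and T cell genes to 7.399 CPM. A count of 0 over these cells allows a level of up to 5.46 CPM by the exact Poisson 95% interval. Oligodendrocyte genes summed to 744 CPM, led by Mbp, and haemoglobin genes to 4201 CPM, against 584 and 929599 CPM in the haemoglobin-rich cells. The summed level of the 5 VLMC genes was 886 CPM, led by the matrix gene Dcn.

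Outside the lists, the 10 genes with the highest ratio over other cells were Cd14, AF251705, Pld4, Gpr84, C3ar1, Gm26522, Ccr1, Ccl9, Nlrp3 and Ctsc. The co-receptor for lipopolysaccharide Cd14 was at 1691 CPM in the 80 cells and 8.83 CPM in the rest, a ratio of 172 with 1 CPM added to both. The exonuclease gene Pld4 was at 749 CPM and the lysosomal protease gene Ctsc at 1005 CPM. Nlrp3, the sensor of an inflammasome, was at 201 CPM and was seen in 50 of the 80 cells. The most abundant of all listed genes was Apoe, the lipid carrier, at 39488 CPM, followed by Cst3, a cysteine protease inhibitor, at 26325 CPM. Apoe was also found at 3147 CPM in the other cells, and Cst3 at 2644 CPM.

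The parenchymal genes were then set beside the border genes within the 80 cells. P2ry12, the ADP receptor of microglial processes (chr3:59216272-59262871, minus strand), was found in 58 of 80 cells at 500.2 CPM (exact Poisson 95% interval 448 to 556). Tmem119, a membrane protein of microglia (chr5:113793729-113800516, minus strand), was found in 62 cells at 420 CPM (373 to 472). Mrc1, the mannose receptor of border macrophages (chr2:14229392-14332057, plus strand), was found in 26 cells at 139 CPM (112 to 170). Lyz2, which encodes lysozyme (chr10:117277331-117282321, minus strand), was found in all 80 cells at 3970 CPM (3821 to 4123). These intervals and those below cover counting error only. In the haemoglobin-rich cells, P2ry12 was detected in 0.830% of cells, Tmem119 in 1.66%, Mrc1 in 0.415% and Lyz2 in 10.8% at a similar depth. With every cell thinned to 3000 UMIs, 58.8% of the 80 cells kept P2ry12, 60% Tmem119, 22.5% Mrc1 and 98.8% Lyz2, against 0.415%, 0%, 0% and 4.15% of the haemoglobin-rich cells.

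Lyz2 did not divide the cells in the way Mrc1 did. Per 10000 UMIs of a cell, Lyz2 ranged from 2.01 to 413 with a median of 19.6, and no cell was at 0. A single cell held 949 of the 2683 Lyz2 UMIs (35.4%), and without it the level was 2656 CPM. That cell had 22972 UMIs, 1 UMI of P2ry12, none of Mrc1, 189 of Spp1 and 166 of Cd74. Mrc1 ranged from 0 to 20.8 per 10000 UMIs with a median of 0, while P2ry12 reached 22.2 with a median of 2.96 and Tmem119 36.9 with a median of 2.87.

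Taking both pairs of genes together, 23 cells had more UMIs of P2ry12 and Tmem119, 54 cells had more of Mrc1 and Lyz2, and 3 were tied. Lyz2 carried most of the second class, as 33 of its 54 cells had no Mrc1 UMI at all and 41 of them held more UMIs of the 20 parenchymal microglia genes than of the 20 border macrophage genes. Of these 54 cells, 30 had more P2ry12 than Mrc1. As 7 cells lay within 1 UMI of the boundary and 25 within 5 UMIs, the class of many cells rested on few UMIs. Whether the cells form a range or separate types was not tested. Between these classes, 3.55% of 2763 genes were at least 2-fold higher in the P2ry12 and Tmem119 class and 5.28% were so in the Mrc1 and Lyz2 class. The parenchymal list had 8 of its 18 measured genes in the former group and the border list 9 of 13 in the latter. These counts include the genes that made the classes, and without those 4 genes they were 6 of 16 and 7 of 11. Outside the lists, the genes that leaned most to the P2ry12 and Tmem119 class were Ifit3b (313 against 48.7 CPM, in 3 of 23 and 9 of 54 cells), Otud1 (136 against 21.2 CPM, in 6 and 8 cells) and Nop58 (109.7 against 19.1 CPM, in 10 and 9 cells). Those that leaned most to the other class were Wfdc17 (0 against 359.99 CPM, in 19 cells), Bmp2 (0 against 263, in 9 cells) and Igfbp7 (10.4 against 322, in 16 cells). Of the Igfbp7 UMIs in the 80 cells, 88.3% were in 3 cells that also carried many VLMC transcripts and are described below, as were 88% of those of Mfap4 and 78.4% of those of Col1a2, which are on the same list of 10 genes.

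P2ry12 against Mrc1 alone was a listed alternative, and it is described at more length because Lyz2 was seen, after the values were known, to be present in every cell. By this measure 53 cells had more P2ry12, 16 had more Mrc1 and 11 were tied, with 29 cells within 1 UMI of the boundary. P2ry12 without Mrc1 was found in 45 cells, Mrc1 without P2ry12 in 13, both in 13 and neither in 9. By the sums of the longer lists, 67 cells were on the parenchymal side and 13 on the border side. Here and in the counts above, Cst3 made up most of the parenchymal sum (26325 of 34048 CPM over the 80 cells). Lyz2 made up most of the border sum (3970 of 6854 CPM). Of the 16 cells with more Mrc1, 10 were also on the border side of the longer lists. Across the 80 cells, the log2 levels of P2ry12 and Tmem119 had a Pearson coefficient of 0.64, those of Mrc1 and the chemokine gene Pf4 one of 0.86, and those of P2ry12 and Mrc1 one of -0.32. The cells shared a library and many values were at 0, so these coefficients are descriptions.

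**Figure D2:**
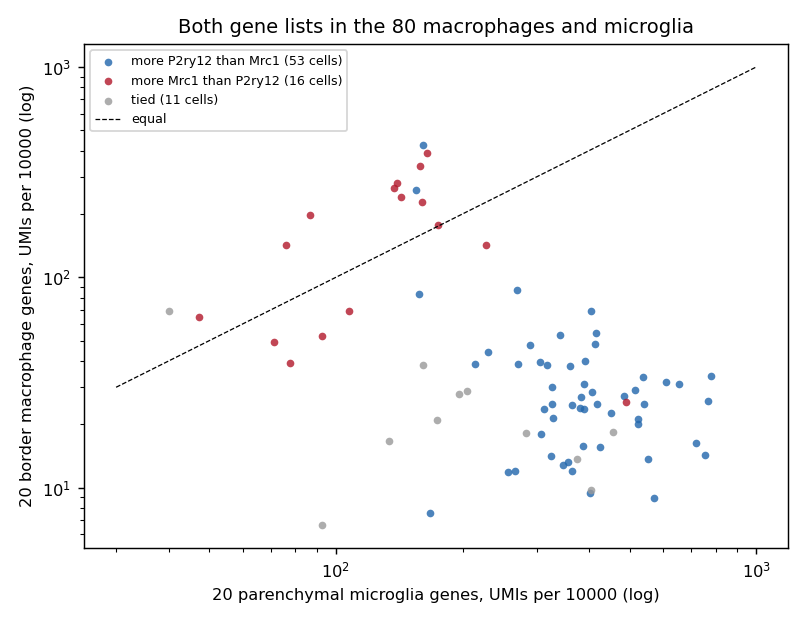
Each point is 1 of the 80 cells, with the summed UMIs per 10000 of 20 parenchymal microglia genes on the x axis and of 20 border macrophage genes on the y axis (both log scales), coloured by whether P2ry12 or Mrc1 had more UMIs. Of the cells above the dashed line of equality, 10 had more Mrc1 than P2ry12 and 3 did not.

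Border genes other than Mrc1 were mostly higher in the cells with more Mrc1. Of the 13 border genes with at least 30 UMIs in both classes together, 12 were at least 2-fold higher in the 16 cells with more Mrc1, where 8.25% of 2595 genes were. Mrc1 itself made the classes, and without it the count was 11 of 12, or 10 of 11 with 3 VLMC-bearing cells also left out. Pf4 was at 2818 CPM (2523 to 3138) in these cells and 18.01 CPM in the 53 cells with more P2ry12. Ms4a7 was at 713 against 70.1 CPM, and the endocytic adaptor Dab2 at 1036 against 20.02 CPM. The haemoglobin scavenger receptor Cd163 was at 144 against 6.00 CPM and the coagulation factor gene F13a1 at 178 against 6.00 CPM. Lyve1, the hyaluronan receptor of perivascular macrophages, had 136 CPM in 5 of the 16 cells and 0 UMIs in the 53 cells, which allows up to 7.38 CPM. Lyz2 was at 5229 CPM in the cells with more Mrc1, and at 3993 CPM in the cells with more P2ry12 or 2195 CPM without the single high cell.

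The parenchymal list went the other way in part. Of its 18 measured genes, 11 were at least 2-fold higher in the cells with more P2ry12, where 10.8% of genes were, and none was 2-fold lower. Without P2ry12, which made the classes, the count was 10 of 17. With the 3 VLMC-bearing cells also left out it was again 10 of 17, and 1 gene, Fcrls, was then at least 2-fold lower. Siglech, a sialic acid-binding lectin of microglia, was at 442 CPM (386 to 505) in the 53 cells and 93.4 CPM in the 16 cells. Selplg, a selectin ligand, was at 861 against 102 CPM, and the ADP receptor gene P2ry13 at 170.1 against 42.4 CPM. Fcrls, also counted as microglial, had the opposite order, at 945 CPM in the cells with more P2ry12 and 1732 CPM in those with more Mrc1. Among the 20 shared macrophage genes, 6 were at least 2-fold higher with P2ry12 and none with Mrc1. Itgam, the integrin subunit CD11b, was at 278 against 50.9 CPM, and the lipid receptor Trem2 at 1611 against 518 CPM. Csf1r differed less, at 1667 against 1078 CPM, and Adgre1, which encodes F4/80, was higher with Mrc1, at 475 against 248 CPM.

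The 4 genes of the rule were not spread evenly between these cells. Ctss was at 11531 CPM in the 53 cells and 2835 CPM in the 16 cells, while C1qa was at 9547 and 5925 CPM. For each C1q UMI there were 0.473 Ctss UMIs with more P2ry12 and 0.193 with more Mrc1. Of the 20 phagocytosis and lysosome genes 7 were at least 2-fold higher with more P2ry12 and 1 with more Mrc1, and Ctsd, the gene of cathepsin D, was at 9177 against 1851 CPM. Apoe hardly differed, at 40493 against 38141 CPM.

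**Figure D3:**
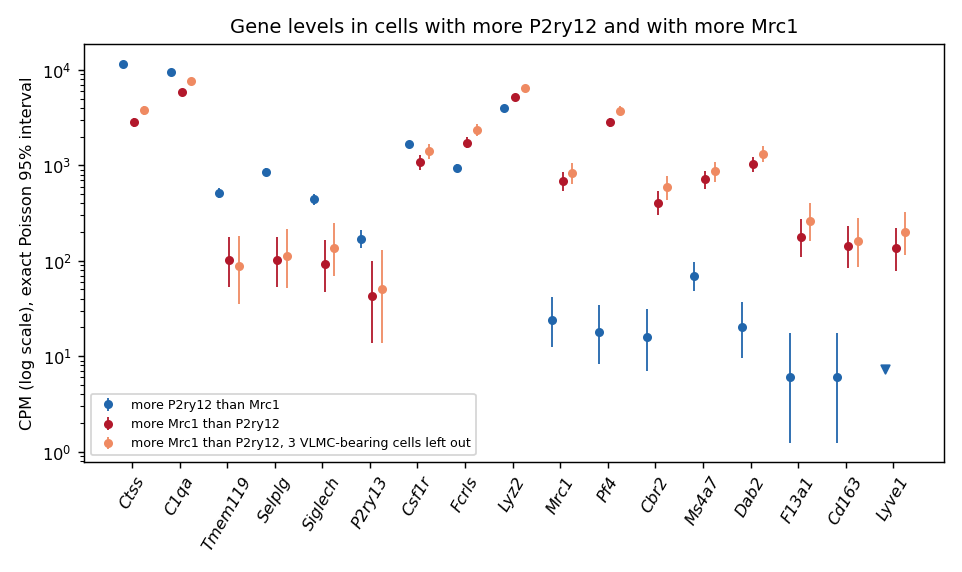
Summed level of 17 genes in CPM (log scale) in the 53 cells with more P2ry12, the 16 with more Mrc1 and the 13 of the latter without 3 VLMC-bearing cells. Bars are exact Poisson 95% intervals and the triangle marks the upper bound for 0 UMIs of Lyve1. Genes from Mrc1 to Lyve1 lie higher in the cells with more Mrc1, and genes from Ctss to P2ry13 lie lower.

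Of the 16 cells with more Mrc1, 3 held 178, 177 and 118 UMIs of the 5 VLMC genes, where the next of the 80 cells held 26. Their rule shares were 0.377%, 0.422% and 0.955%, they had 126, 136 and 53 UMIs of Dcn, 0 of P2ry12 and 3, 1 and 10 of Mrc1, and none was called a doublet. The caller marked 3 of the 990 cells, 1 of them among the 80. The part of VLMC transcripts in the values of the cells with more Mrc1 was not tested beyond leaving these cells out. Without them Pf4 was at 3755 CPM, Dab2 at 1327, Cd163 at 163 and F13a1 at 263 CPM, while P2ry12 was at 87.6 and Tmem119 at 87.6 CPM. Sparc was at 150.2 CPM rather than 526, Igfbp4 at 188 rather than 449.9 and Cxcl1 at 0 rather than 509 CPM.

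Outside the lists and without those 3 cells, the genes that leaned most to the cells with more P2ry12 were Cd34, Il1rn, Tnfaip2, Plaur, Slc7a11, Gng10, Klk8, Gpr84, Trappc1 and Gm26699. Il1rn, which encodes the interleukin-1 receptor antagonist, had 66 UMIs in 16 of the 53 cells and 0 in the 13 cells. Gpr84, a receptor for medium-chain fatty acids, was at 496 against 25.03 CPM. On the other side were Bmp2, Ifitm2, Cyr61, Wfdc17, Smagp, Pla2g7, Stk17b, Lgals1, Pim1 and Tgfbi. Bmp2, a bone morphogenetic protein, had 1 UMI in the 53 cells and 106 UMIs in 7 of the 13 cells, or 2.00 against 1327 CPM. Ifitm2, an interferon-induced membrane protein, was at 951 against 50.04 CPM.

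The cytokine genes differed by member, here over all 16 cells with more Mrc1, the 3 VLMC-bearing cells included. Values without those 3 cells are not given for these genes. Il1a was at 1823 CPM with more P2ry12 and 42.4 CPM with more Mrc1, whereas Il1b was at 2204 and 1324 CPM. The monocyte chemoattractants Ccl7 and Ccl2 were at 176 against 4703 and 1097 against 5017 CPM. Ccl4 was at 7806 against 2903 CPM and Ccl3 at 3841 against 3667 CPM. Of the 11 measured genes of the activated microglia list, 7 were at least 2-fold higher with more P2ry12 and 1 with more Mrc1. The order turned in the division by both pairs of genes, where 7 of the 11 were at least 2-fold higher in the Mrc1 and Lyz2 class and 0 in the other. Between the cells with more P2ry12 and those with more Mrc1, the tetraspanin Cd9 was at 1473 against 102 CPM and the integrin Itgax at 82.1 against 0 CPM, while Igf1, an insulin-like growth factor, was at 30.02 against 169.8 CPM. Spp1 had 398 CPM in the cells with more P2ry12, and the single Lyz2-rich cell held 189 of these 199 UMIs.

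A further axis was antigen presentation. The list of 10 MHC class II genes also holds Ciita, Cd86, Cd80 and Cd40. Its genes made up at least 1% of UMIs (1.23% to 9.52%) in 8 of the 80 cells, the next cell had 0.984% and 68 cells were under 0.5%. The 8 cells were chosen by the sum of these genes, so high levels of the genes that lead the sum restate the choice. In these 8 cells Cd74, the invariant chain, was at 20144 CPM, against 860.5 CPM in the other 72. H2-Aa was at 5665 against 47.7 CPM, H2-Ab1 at 4915 against 93.8 and H2-Eb1 at 3679 against 39.5 CPM. H2-DMa, whose product loads peptides, was at 294 against 286 CPM and the costimulatory gene Cd86 at 162 against 225 CPM. The 8 cells kept 0.673% to 2.85% of their UMIs in C1q genes. Of them, 2 had more Mrc1 than P2ry12, 2 more P2ry12 and 4 were tied with no UMI of either gene. By both pairs of genes 7 of the 8 were on the Mrc1 and Lyz2 side and 1 was tied.

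Division was rare among these cells. A single cell had 63 UMIs of the 10 proliferation genes, with 2 of Mki67 and 6 of Top2a, and the next had 11. The dividing cell had 24 UMIs of P2ry12, 18 of Tmem119 and 0 of Mrc1 among 16748. For the growth signals, ligand before receptor, Csf1 was at 94.7 CPM in the 80 cells and 24.6 in the others, Il34 at 1.48 and 3.38 CPM, and the fractalkine gene Cx3cl1 at 7.399 and 25.2 CPM. The receptor genes Csf1r and Cx3cr1 were almost confined to the 80 cells, with 93.3% and 89.6% of their UMIs there.

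The 80 cells carried many chemokine and interleukin transcripts. Ccl4 was at 7070 CPM, Ccl3 at 3819, Ccl12 at 2308 and Il1b at 2183 CPM, with 91.0%, 95.1%, 93.8% and 93.8% of the library's UMIs of each. The immediate early gene Fos was at 4157 CPM, but also at 3102 CPM in the other 910 cells. The whole single-cell library was set beside the 3 control bulk libraries, in CPM with 1 added, without a test, since the tables were normalized separately. Ccl4 was at 533 CPM in the single-cell library and at 0.335, 2.83 and 2.65 CPM in the controls. Ccl3 was at 276 CPM against 0.559, 1.33 and 0, and Cxcl2, a neutrophil chemoattractant, at 80.1 CPM against 0 in all 3 controls. C1qa, in contrast, was at 631 CPM against 199, 516 and 272.

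The lists showed the same split. The 16 cytokine and chemokine genes had a median log2 ratio of 3.36 (single-cell library over the mean of controls) and 8 lay above 3, as did 11 of the 15 immediate early and stress genes (median 4.05), where 2.01% of 12951 genes did and the median of these was -0.72. The 20 shared macrophage genes had a median of -0.19 and none above 3, and the medians of the 4 rule genes and the 10 MHC class II genes were -0.23 and -0.62. Ccl8 went the other way, at 2.03 CPM against 4.69, 47.7 and 41.5. Papain digestion, the sequencing chemistry and the animals, perhaps with their age, differed between these libraries and cannot be told apart.

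**Figure D4:**
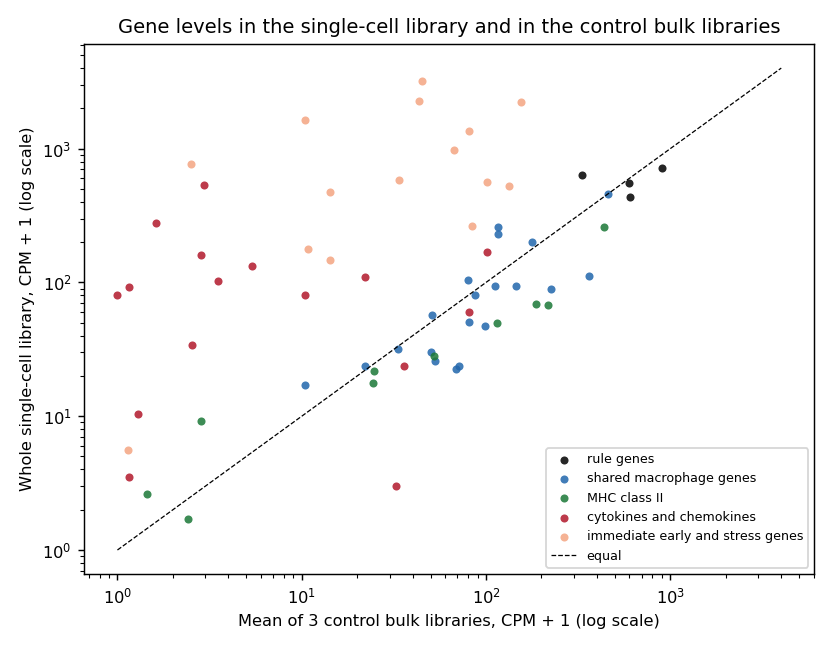
Each point is a gene, with the mean CPM + 1 of the 3 control bulk libraries on the x axis and the CPM + 1 of the whole single-cell library on the y axis (log scales), coloured by gene list. Rule, shared macrophage and MHC class II genes lie near the dashed line of equality, and most cytokine, chemokine, immediate early and stress genes lie above it.

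In bulk RNAseq the question was how transcripts of these cells compare between control and BrafV600E mutant ME, in samples that the rule did not use. Total counts were 8348930, 12209728 and 13816596 in controls 1 to 3 and 10754670, 9329661, 5678941 and 4928456 in mutants 1 to 4. Genes with a count numbered 34942, 21986 and 17874 for controls 1 to 3, and 25910, 35978, 40852 and 39508 for mutants 1 to 4. Fewer cells of a type and less RNA per cell cannot be told apart in these libraries. By edgeR's quasi-likelihood test, 0 of 20466 genes passed a Benjamini-Hochberg adjusted p of 0.05 (0%; 8.12% at an unadjusted p under 0.05, 3.89% lower and 4.23% higher in mutants), and DESeq2 called 297. None of the bulk differences below passed the adjusted threshold in the edgeR test.

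The rule genes were lower in mutants on average, with control 1 among the mutants. Ctss was at 318, 1229 and 1164 CPM in the controls and 586, 229.95, 315 and 453 CPM in the mutants, a log2 fold change of -1.18 ± 0.47 (SE; adjusted p = 0.555). C1qc was at 172, 741 and 890.1 CPM and at 346, 123, 136 and 280 CPM (-1.43 ± 0.54, adjusted p = 0.526). C1qa was at 199, 516 and 272 CPM and at 262, 90.7, 123 and 218 CPM (-0.92 ± 0.43, adjusted p = 0.633). In all of these, control 2 or 3 was highest, mutant 1 was the highest mutant, and the groups overlapped through control 1. C1qb had the same pattern, at 265 CPM, 934 and 594 in controls 1 to 3 and 443, 167, 238 and 362 CPM in the mutants (-0.98 ± 0.45, adjusted p = 0.626).

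The receptors and general markers followed. Csf1r was at 246, 644 and 187 CPM in the controls and 281, 164, 159 and 166 CPM in the mutants (-0.89 ± 0.43, adjusted p = 0.637), and the groups overlapped. Aif1 was at 25.9, 114 and 119 CPM against 47.4, 8.49, 20.6 and 31.7 CPM (-1.67 ± 0.60, adjusted p = 0.520). Cx3cr1 was at 68.7, 164 and 59.1 CPM against 94.9, 37.4, 29.3 and 50.7 CPM (-0.87, adjusted p = 0.682). Only Itgam of the shared list had mutants all below the controls, at 4.804, 8.24 and 15.2 CPM against 4.39, 2.69, 2.96 and 3.87 CPM, where 3.18% of all genes tested had such groups. All 20 shared macrophage genes had a log2 fold change below 0, against 43.3% of all genes, and their median was -1.08 against 0.13 for all genes. At an unadjusted p under 0.05, 8 of the 20 were lower (among them Aif1, Fcer1g, Itgam, Spi1, Irf8, Cyth4 and Cd53) and none was higher. Spi1 was at 28.8, 67.4 and 51.5 CPM against 31.4, 11.8, 8.56 and 16.2 CPM (-1.53 ± 0.47, adjusted p = 0.444).

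**Figure D5:**
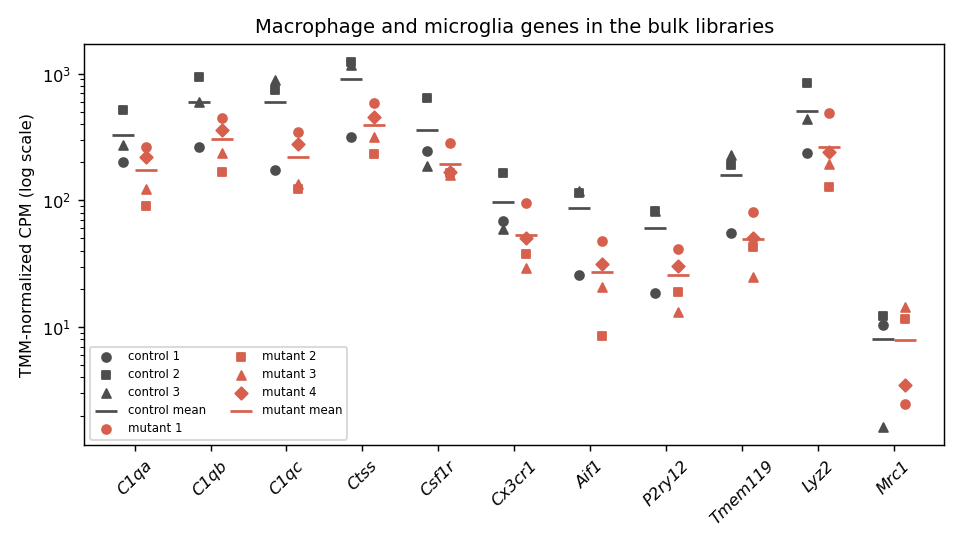
TMM-normalized CPM (log scale) of 11 genes in the 3 control and 4 mutant bulk libraries, with a symbol per library and a bar at each group mean. Control 1 lies within the range of the mutants for every gene drawn, and for Mrc1 (1.62 to 12.1 CPM in controls, 2.49 to 14.3 CPM in mutants) the groups overlap.

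Parenchymal and border genes were then read separately in bulk. P2ry12 was at 18.7, 81.8 and 82.4 CPM in the controls and 41.0, 19.1, 13.2 and 30.1 CPM in the mutants (-1.23 ± 0.53, adjusted p = 0.587). Tmem119 was at 55.0, 190 and 229 CPM against 81.0, 43.1, 24.7 and 50.2 CPM (-1.66 ± 0.50, adjusted p = 0.440). In both genes controls 2 and 3 stood above every other library and control 1 lay among the mutants. Mrc1 was at 10.4, 12.1 and 1.62 CPM against 2.49, 11.5, 14.3 and 3.52 CPM, with a log2 fold change of -0.01 ± 0.82 (adjusted p = 0.998) whose sign turned in 11 of the 15 alternatives. Lyz2 was at 236, 849 and 435 CPM against 493, 127, 194 and 242 CPM (-0.93 ± 0.51, adjusted p = 0.684). Each of the 4 genes had groups that overlapped, and the difference between the Mrc1 and P2ry12 changes was not tested.

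Of the 20 parenchymal genes 15 were lower, with a median of -0.91, and 7 were lower at an unadjusted p under 0.05 (P2ry12, Tmem119, Gpr34, Siglech, Fcrls, Olfml3 and Crybb1). Of all genes 43.3% were lower and 3.89% were so at that p. Among genes with at least 50 UMIs in the 80 cells but under 20% of their UMIs there, 67.7% and 8.03% were. Crybb1, a crystallin gene found in young microglia, was at 16.3, 46.6 and 23.7 CPM against 6.28, 5.69, 6.91 and 10.6 CPM (-1.96 ± 0.47, adjusted p = 0.359), and the groups did not overlap. Olfml3 was at 128, 353 and 206 CPM against 113, 44.8, 53.7 and 76.1 CPM (-1.66 ± 0.41, adjusted p = 0.359), also without overlap. Sparc, a matrix protein, was the only gene of this list higher at that p, at 764, 863 and 675 CPM against 1079, 1260, 1167 and 1095 CPM (0.59 ± 0.26, adjusted p = 0.609). Its mutants all lay above the controls, where 5.83% of all genes had such groups. In the single-cell library 14.8% of Sparc UMIs were in the 80 cells, against 95.5% of P2ry12, 95.7% of Siglech and 93.9% of Gpr34. For Olfml3 the share was 35.9%.

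Of the 18 border genes tested 14 were lower, with a median of -0.58, and 4 were lower at an unadjusted p under 0.05 (Cbr2, Ms4a7, Ms4a6c and Ifitm3). Of all genes 43.3% were lower and 3.89% were so at that p. With limma-voom 9 of the 18 were lower (median -0.10), where 35.8% of all genes were. With the replicate number as a block 10 of the 18 were lower (median -0.39), where 38% of all genes were. Cbr2, a carbonyl reductase, was at 140.3, 79.0 and 27.3 CPM against 32.0, 10.4, 18.3 and 7.92 CPM (-2.25 ± 0.59, adjusted p = 0.407), with mutant 1 above control 3. Ms4a7 was at 25.8, 90.0 and 79.9 CPM against 26.1, 8.18, 17.6 and 26.9 CPM (-1.72 ± 0.50, adjusted p = 0.440). Pf4 was at 5.81, 20.8 and 16.1 CPM against 11.7, 4.87, 12.2 and 7.92 CPM (-0.63, adjusted p = 0.824). Ifitm3 had groups that did not overlap, but only 9.44% of its single-cell UMIs were in the 80 cells.

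Lists of function gave fewer low p-values. Of all genes 43.3% were lower in mutants, with 3.89% lower and 4.23% higher at an unadjusted p under 0.05. Of the 20 phagocytosis and lysosome genes 18 were lower (median -0.36) and 1, the protease gene Lgmn, was so at an unadjusted p under 0.05 (-1.05, adjusted p = 0.545). The MHC class II list, which also holds Ciita, Cd86, Cd80 and Cd40, had 7 of 10 lower (median -0.42) and none at that p. By DESeq2, the 3 higher were Ciita, Cd80 and Cd40, and the H2 genes and Cd74 were all lower. The lowest p of the list was that of the costimulatory gene Cd80, at 0.670, 0.266 and 0.427 CPM against 1.10, 3.11, 3.46 and 2.46 CPM (2.45 ± 1.16, adjusted p = 0.633). H2-Ab1 was at 117, 227 and 301 CPM against 184, 45.8, 97.3 and 152 CPM, with groups that overlapped. Of 15 activated microglia genes, Spp1 was lower (-1.82, adjusted p = 0.440) and Fabp5 higher (0.61, adjusted p = 0.587) at that p. Of 11 cytokine and chemokine genes tested, Ccl8 was at 4.69, 47.7 and 41.5 CPM against 6.28, 1.76, 3.46 and 4.93 CPM (-2.92 ± 0.72, adjusted p = 0.359), and Cxcl16 was also lower (-1.43, adjusted p = 0.500017). Among 14 growth and survival genes, 7 were lower and 7 higher, with Csf1, Il34 and Cx3cl1 at 0.25, 0.42 and 0.48. Cd200r1, an inhibitory receptor, was the 1 member past that p (4.23 ± 1.54, adjusted p = 0.520), with at most 0.223 CPM in a control and 1.32 to 3.34 CPM in the mutants. Of 13 scavenger and iron genes 10 were lower (median -0.45), while 12 of 14 immediate early and stress genes were higher (median 0.28, 2 at that p).

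Genes were also chosen by the single-cell library alone, as those with at least 50 UMIs in the 80 cells and at least 80% of their UMIs there, a limit set after values were seen. Of these 112 genes 106 were tested in bulk, 91 (85.8%) were lower and 32 (30.2%) were lower at an unadjusted p under 0.05, with none higher and a median of -0.93. Genes with the same minimum of UMIs but under 20% of them in the 80 cells were lower in 67.7% and lower at that p in 8.03%, against 43.3% and 3.89% of all genes. Genes with 50% to 80% of their UMIs in the 80 cells had a median of -0.56, and those with 20% to 50% and under 20% both had a median of -0.23. The 63 tested genes of the 106 that are on no list had 52 lower and 17 lower at that p. The sum over the 106 genes was 3107, 9904 and 7913 CPM in the controls and 4943, 1932, 2593 and 3634 CPM in the mutants, and control 1 lay among the mutants. Among the more abundant of them, Lair1, an inhibitory collagen receptor, was at 28.8, 74.8 and 47.8 CPM against 17.6, 11.7, 9.05 and 16.0 CPM (-1.88, adjusted p = 0.267) without overlap. Pld4 had a log2 fold change of -2.04 (adjusted p = 0.422) and C3ar1, the receptor for a complement fragment, one of -1.92 (adjusted p = 0.440). Cd14, although 93.4% of its UMIs were in the 80 cells, had one of -0.11 (adjusted p = 0.974).

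Transcripts of other cell types also differed between these libraries. The 6 oligodendrocyte genes were all lower, 5 at an unadjusted p under 0.05, and their sum, led by Mbp, was 5830, 18605 and 15627 CPM in the controls and 7287, 5635, 3613 and 4138 CPM in the mutants. The 5 VLMC genes, led by Dcn, had 4 lower and summed to 1071, 2657 and 2865 CPM against 767, 527, 460.4 and 339 CPM. The 5 endothelial genes, led by Plvap, summed to 337, 259 and 217 CPM against 128, 69.1, 115 and 77.3 CPM, and the 4 pars tuberalis genes, led by Cga, to 4757, 1348 and 1319 CPM against 893, 516, 1120.04 and 245 CPM. The groups did not overlap in the sums of VLMC, endothelial, pars tuberalis, neutrophil and B cell genes, all lower in mutants. Nor did they in the sums of tanycyte and oligodendrocyte precursor genes, both higher in mutants. They overlapped for oligodendrocytes and for the rule genes. The tanycyte sum was led by Ptprz1, and its genes were mixed, with 2 of the 5 tested lower and 3 higher. By DESeq2, the log2 fold change was -0.87 for Scn7a, -0.49 for Col25a1, 0.19 for Rax, 1.90 for Crym and 2.42 for Ptprz1. Of the 6 neutrophil genes 4 were tested and all 4 were lower, and the 6 genes, led by S100a8, had sums of 34.9, 211 and 24.9 CPM against 18.5, 6.21, 19.6 and 21.3 CPM. B cell genes, led by Ighm, summed to 37.4, 62.4 and 167 CPM against 33.4, 18.2, 18.9 and 26.9 CPM. The 4 genes of oligodendrocyte precursors were all higher, with a median of 2.37. The libraries with the most macrophage transcripts, controls 2 and 3 and mutant 1, were also the 3 with the fewest genes detected. The part of these cell types and of the number of detected genes in the macrophage values was not tested.

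Single libraries weighed on these counts. Without control 1, 17 of the 20 shared macrophage genes were lower at an unadjusted p under 0.05 (7.38% of all genes were) and their median was -1.46. Without control 2, 16 of 20 were lower, 2 at that p, and the median was -0.66, where 42% of all genes were lower and 2.91% were so at that p. The median of the parenchymal list was then -0.33 (13 of 20 lower, 4 at that p) and that of the border list -0.32, and the 4 rule genes had a median of -0.67 with 0 at that p. The log2 fold change without control 2 was -0.15 for Csf1r, -0.25 for Cx3cr1, -0.32 for Lyz2, -0.42 for C1qa and -0.48 for C1qb. Without mutant 2, 3 or 4 the number at that p was 4, 3 or 6 (2.09%, 2.25% and 2.23% of all genes), and without control 3 or mutant 1 it was 10 or 13 (3.05% and 4.81% of all genes). Among the 106 genes chosen by their single-cell share, 55 were lower at that p without control 1 and 13 without control 2.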

How the data were processed

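The authors deposited a UMI count matrix from 10x Genomics 3' sequencing, made with Cell Ranger (version 2.0.1 in the submitters' processing notes, GRCm38/mm10), and a table of raw read counts per gene for 7 bulk libraries. The aligner and counter of the bulk table, and any batch, are not given in the sources used here, and no deposited column was left unused. All 990 barcodes were kept. Doublets were called with Scrublet (scanpy 1.11.5, expected rate 0.06) and not removed. CPM are summed UMIs scaled to a total of 1e6 over the cells concerned.

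Bulk counts were tested over all 20466 genes that passed the filter on low counts, with edgeR 4.0.16 (R 4.3.3; TMM, quasi-likelihood, Benjamini-Hochberg), between control and mutant, and again with DESeq2 1.42.0 and limma 3.58.1. The methods give as many mice as libraries, so each library was taken as 1 mouse. The counting is not stated to use strand. The scripts were tested on simulated data.

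Cells, gene lists and alternatives were chosen with earlier results of these data known. Genes named are the list members, the 10 outside the lists with the highest ratio of members to other cells (1 CPM added, at least 50 UMIs), and the 10 in each direction between classes (5 CPM added, at least 30 UMIs). In bulk they are 11 genes given in every library (the 4 rule genes, P2ry12, Tmem119, Mrc1, Lyz2, Csf1r, Cx3cr1 and Aif1) and, in each list, members at an unadjusted p under 0.05 or the lowest p. Genes named by their single-cell share were chosen after their values were seen, as were Cd14, Pf4 and H2-Ab1 in bulk.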

Additional observations from a re-analysis of the deposited data

Results flagged for a closer look

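Csf1r, the receptor for the growth factors of macrophages, stood out in mutant 1 of the bulk libraries, at 281 CPM where the other mutants had 164, 159 and 166 CPM. The gap of this library to the nearest of the others was large for a group of 4, by Dixon's criterion at 95%, which marks about 1 group in 20 by chance. Mutant 1 also had the most C1qa, Ctss, P2ry12 and Tmem119 of the mutants.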

How the results depend on the processing

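The 80 cells stayed within 75 to 80 under other thresholds of the rule. The count of cells on the parenchymal side was 23 by both pairs of genes, 67 by the longer lists and 53 by P2ry12 against Mrc1, and that on the border side 54, 13 and 16. In bulk, 0 genes passed the adjusted threshold with edgeR. The count was 297 with DESeq2, 1 with DESeq2 size factors, 1 with upper quartile scaling, 3 with library sizes alone, 240 with no filter on low counts, 13 with at least 10 counts in every library, and 0 to 45 with a library left out (45 without control 1, 16 without control 3). The cause was not tested. At an unadjusted p under 0.05 there were 1661 genes, 4631 with no filter, 6910 without control 1, and 863, 892 and 873 without mutants 2, 3 and 4. The Mrc1 log2 fold change of -0.01 turned to 0.0148 with DESeq2, 0.0147 with its size factors, 0.0312 with upper quartile scaling, 0.0318 with at least 10 counts, 0.0934 with library sizes, 0.10 with limma-voom, and ranged from -0.48 to 0.41 with a library left out (0.19 without control 1, 0.41 without control 2, 0.31 without mutant 1 and 0.25 without mutant 4). The median of the border genes was -0.10 with limma-voom. With no filter, C1qc (adjusted p = 0.0436), Tmem119 (0.00841) and Aif1 (0.0109) passed with edgeR's test, and of the lists 4 parenchymal, 2 border, 2 shared and 1 rule gene did, as did 13 of the 111 genes chosen by single-cell share. In that fit 240 of all 47682 genes tested passed. The log2 fold changes of the other 10 genes given in every library and the medians of the shared and parenchymal lists were below 0 in all 15 alternatives, but without control 2 those of Csf1r, Cx3cr1, Lyz2, C1qa and C1qb (-0.15 to -0.48) and the medians of the parenchymal (-0.33), border (-0.32) and shared (-0.66) lists were nearer 0. The median of all genes moved from 0.13 to 0.25 with library sizes, 0.35 with limma-voom and 0.59 with no filter, so a level relative to all genes differs by this shift.

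The labels number controls and mutants alike, and deviations from the group means correlated at -0.454, -0.00762 and -0.227 in pairs 1 to 3. With means of 3 and 4 libraries, these values cannot decide whether the numbers pair the libraries. With the replicate number as a block, 0 genes passed the adjusted threshold, 549 had an unadjusted p under 0.05, and the Mrc1 log2 fold change was 0.23. In the block fit 2 of the 20 shared genes and 9 of the 106 genes chosen by single-cell share were lower at that p, where 0.884% of all genes were.

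With 1 single-cell library of pooled mice, no difference between cells has a replicate check. A count of 0 UMIs in the 80 cells allows a level of up to 5.46 CPM.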

Other observations

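By DESeq2, which called 0.596% of genes lower in mutants, 6 list members had an adjusted p under 0.05 and a lower level in the 4 mutants. These were Olfml3 (adjusted p = 0.0105), Crybb1 (0.0189), Cbr2 (0.0143), Ifitm3 (0.0447), Spp1 (0.0290) and Ccl8 (0.0106), and none passed with edgeR under its filter on low counts. Of these, Spp1, the gene of osteopontin, was at 495 CPM, 253 CPM and 537 CPM in controls 1 to 3 and at 245, 41.5, 74.2 and 124 CPM in the mutants, and the groups did not overlap.

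In the 80 cells the top 10 cells held 95.01% of Pf4 UMIs, 79.1% of Cd74 UMIs and 77.7% of Mrc1 UMIs, against 46.4% for P2ry12 and 31.1% for C1qa.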
